A study of Homo sapiens with 6 samples.

Results

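Gene expression on 2 arrays of HSC3 cells, labelled LEMD1 siRNA and MIA2 siRNA, was compared with that on 2 others, labelled control and MIA siRNA. These are 4 of the 6 arrays of the study, which hybridized RNA of 1 condition to each CodeLink Human Whole Genome Bioarray. HSC3 is a cell line of human oral squamous cell carcinoma, so every value here comes from 1 line. Arrays for TANGO siRNA and for MATE2 siRNA entered the normalization and the choice of a probe for each gene, were not used by the rule below, and are shown only as levels beside the others. Each siRNA was meant to lower the transcript it is named for. The control cells are untreated in the methods of the study and were given a control siRNA in its deposited design, so what the control received is not settled.

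The arrays of a side carry different siRNA labels and are not replicates. With 1 array per condition there is no error of a level, no test and no p-value, and a fixed rule of size took their place. A gene was called where both arrays of the LEMD1/MIA2 side lay at least 2-fold beyond both arrays of the control/MIA side. The gap is the log2 distance between the nearest arrays of the sides, negative where the LEMD1/MIA2 side was lower and 0 where the sides overlapped. A level is the normalized signal of a probe, and in each pair of levels the arrays come in the order LEMD1, MIA2 and control, MIA. Levels were compared between arrays for 1 probe and not between genes, except that the signals of cell type markers were summed over genes on each array.

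LEMD1 encodes a LEM domain protein, made in the testis and in some tumours and otherwise in few tissues, a pattern that defines the cancer-testis antigens. LEM domains tie proteins of the inner nuclear membrane to chromatin. MIA, MIA2 and TANGO belong to a family of proteins with an SH3-like domain. TANGO, also called MIA3, and MIA2 help load large cargo at the exit sites of the endoplasmic reticulum, and MATE2, encoded by SLC47A2, is a transporter that extrudes organic cations and drugs.

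The transcripts that the siRNAs were named for were examined first. The LEMD1 probe read 277.9 on control and 195 on the array labelled MIA siRNA, and it was near background, at 27.6 and 42.3, on both arrays of the other side. This put LEMD1 at least 4.61-fold lower on the LEMD1/MIA2 side, where a near-background array counts as no lower than the lowest good signal on it. LEMD1 signal was thus near background on the array labelled MIA2 siRNA as well. For MIA2, the probe that passed on all arrays read 175 and 169 on the LEMD1/MIA2 side and 155 and 138 on the control/MIA side, so its signal was not lower on the array that carries the label. That probe was assigned to MIA2 by gene symbol and stands for another transcript of the gene than the RefSeq one. The probe for the MIA2 RefSeq transcript and the MIA probe were near background on all 4 arrays, and MIA3 had no named probe. SLC47A2 read 1703 and 1575 on the LEMD1/MIA2 side and 1509.8 and 1334 on the control/MIA side. The MIA2 and MIA labels could therefore not be checked on the RefSeq transcripts, and both arrays are named by their labels.

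The sides differed more than the arrays within them. Of 12123 genes good on the 4 arrays, 195 were called lower on the LEMD1/MIA2 side, or 1.61%, and 121 were called higher, or 0.998%. By any amount, both arrays of that side lay below both others for 3348 genes, 27.6% of those measured, and above them for 3041 genes, 25.1%. For 5734 genes the sides overlapped. When the background was not subtracted, 115 lower and 70 higher genes were called, all of them among those above. The arrays labelled LEMD1 siRNA and MIA2 siRNA differed from each other by at least 2-fold in 108 genes, and control and the array labelled MIA siRNA differed in 82. Across the sides, the 4 pairs of arrays differed in 612 to 1044 genes. The robust SD of the log2 ratio over genes was 0.35 between the arrays labelled LEMD1 siRNA and MIA2 siRNA and 0.25 between the others, against 0.40 to 0.54 across the sides. Good gene probes numbered 27545 on the array labelled MIA2 siRNA and 30628 on the LEMD1 siRNA array, the lowest and highest of the 6.

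The rule sets the least gap of a called gene, so the distances of called genes are a description. Among the 195 lower genes the median distance between the LEMD1/MIA2 arrays was 0.24 and that between the control/MIA arrays 0.14, in log2, while the median gap between sides was 1.26 in size. Among the 121 higher genes these values were 0.23, 0.13 and 1.29, and 2 of these genes were 2-fold or more apart within a side. A gap of 4-fold or more was seen in 19 lower and 12 higher genes. Nearest to the threshold, GATAD1 and NFKBIL1 passed with gaps of -1.0007 and -1.0011, and RAD54B and SYBU missed it with gaps of -0.9974 and -0.9968. In the other direction SRL and CCNJL passed at 1.0016 and 1.007, and the histone gene H2BC8 and the pseudogene KRT19P2 missed it at 0.9925 and 0.9877. The sides can also be split into pairs with no array in common. The log2 ratio of the LEMD1 siRNA array over control and that of the array labelled MIA2 siRNA over the array labelled MIA siRNA had a Pearson r of 0.71 and a Spearman rho of 0.60 over the 12123 genes. With the partners exchanged, r was 0.54 and rho 0.39. These are correlations across genes of arrays normalized together, and genes are not independent replicates.

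**Figure D1:**
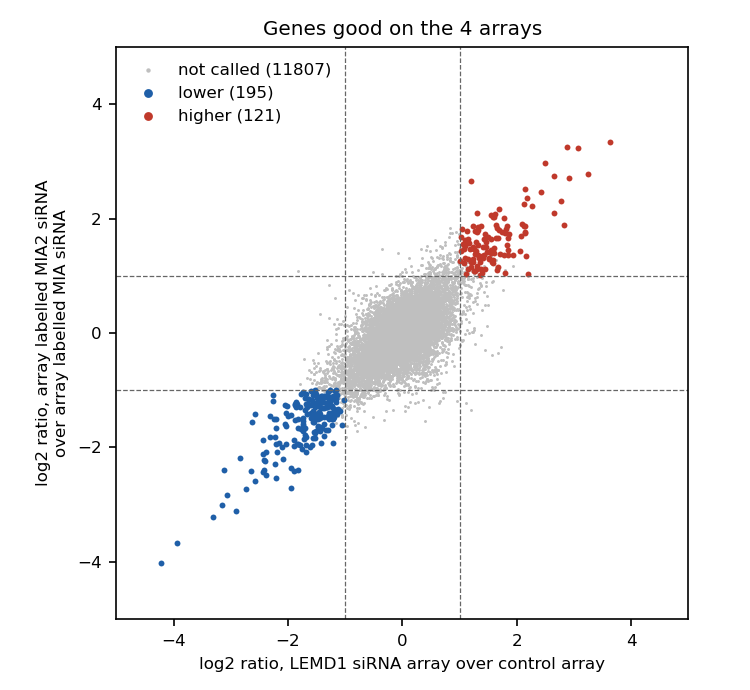
Log2 ratio of the LEMD1 siRNA array over control (horizontal) against that of the array labelled MIA2 siRNA over the array labelled MIA siRNA (vertical), 1 point per gene for 12123 genes, with dashed lines at 2-fold. The 195 lower and 121 higher genes lie in the lower left and upper right corners because the rule requires it, and r was 0.71 over all genes, the called ones included.

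The lower gene with the largest gap was a cell surface glycoprotein. CEACAM6, a glycoprotein of the carcinoembryonic antigen family that mediates cell adhesion, read 71.1 and 73.3 on the LEMD1/MIA2 side and 1332 and 1187 on the control/MIA side. Its nearest arrays were 16.2-fold apart, the largest distance among the lower genes. ESM1, a proteoglycan best known from endothelial cells, read 48.5 and 67.6 on the LEMD1/MIA2 side and 743 and 862 on the control/MIA side. PHLDA1, a pleckstrin homology domain protein induced by growth factors, read 69.8 and 61.6 on the LEMD1/MIA2 side and 696 and 574 on the control/MIA side. In these 3 genes no array of one side came near the other.

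DHRS9, a retinol dehydrogenase, read 102 and 109.5 on the LEMD1/MIA2 side and 848 and 783 on the control/MIA side. SOX9, a transcription factor of progenitor cells in many epithelia, read 176 and 136 on the LEMD1/MIA2 side and 1330.4 and 1178 on the control/MIA side. BIRC3, an inhibitor of apoptosis that is also an NF-kB target, read 75.4 and 59.9 on the LEMD1/MIA2 side and 669.9 and 482 on the control/MIA side. For each of them the lower of the control/MIA levels was over 6-fold above the higher of the other side, with folds of 7.15, 6.68 and 6.39. The transcription factor ETS1, an effector of ERK signalling, read 151 and 143 on the LEMD1/MIA2 side and 816 and 774 on the control/MIA side. The calcium-binding protein CALB2 read 66.1 and 80.0 on the LEMD1/MIA2 side and 577 and 423 on the control/MIA side. ALDH1A3, which makes retinoic acid, read 68.0 and 62.5 on the LEMD1/MIA2 side and 363 and 328 on the control/MIA side. The nearest arrays of these 3 genes were 5.12-fold, 5.29-fold and 4.82-fold apart.

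Among the higher genes with the largest gaps were a basal keratin, KRT5, and the enzymes AKR1B10 and GSTA4. KRT5, the type II keratin of basal keratinocytes, read 14792 and 12771 on the LEMD1/MIA2 side and 1558 and 1867 on the control/MIA side, a distance of 6.84-fold. AKR1B10, an aldo-keto reductase, read 5294 and 5868 on the LEMD1/MIA2 side and 720.2 and 618 on the control/MIA side. GSTA4, a glutathione transferase for lipid aldehydes, read 861 and 1231 on the LEMD1/MIA2 side and 103 and 131 on the control/MIA side. The nearest arrays of AKR1B10 and GSTA4 were 7.35-fold and 6.6-fold apart.

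MRPL2, a protein of the large mitochondrial ribosomal subunit, had the largest gap upwards, at 7514 and 8112 on the LEMD1/MIA2 side and 606 and 799 on the control/MIA side. A second MRPL2 probe that was good on the 4 arrays had overlapping sides, so the gap rests on the brighter probe. BOLA3, needed for iron-sulfur cluster assembly in mitochondria, read 764 and 747 on the LEMD1/MIA2 side and 102 and 114 on the control/MIA side. IL6R, the receptor chain that binds interleukin-6, read 915 and 617 on the LEMD1/MIA2 side and 146 and 144 on the control/MIA side. SPARC, a secreted glycoprotein that binds collagen, read 2225 and 1979 on the LEMD1/MIA2 side and 489 and 385 on the control/MIA side, and its second probe had a gap of 1.73. The others in this group were CDKN2AIPNL, the long noncoding RNA GIRGL, the apolipoprotein L gene APOL4, AHSG, which encodes fetuin-A, and NIPSNAP3A, with gaps of 2.49, 2.42, 2.38, 2.31 and 2.19.

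**Figure D2:**
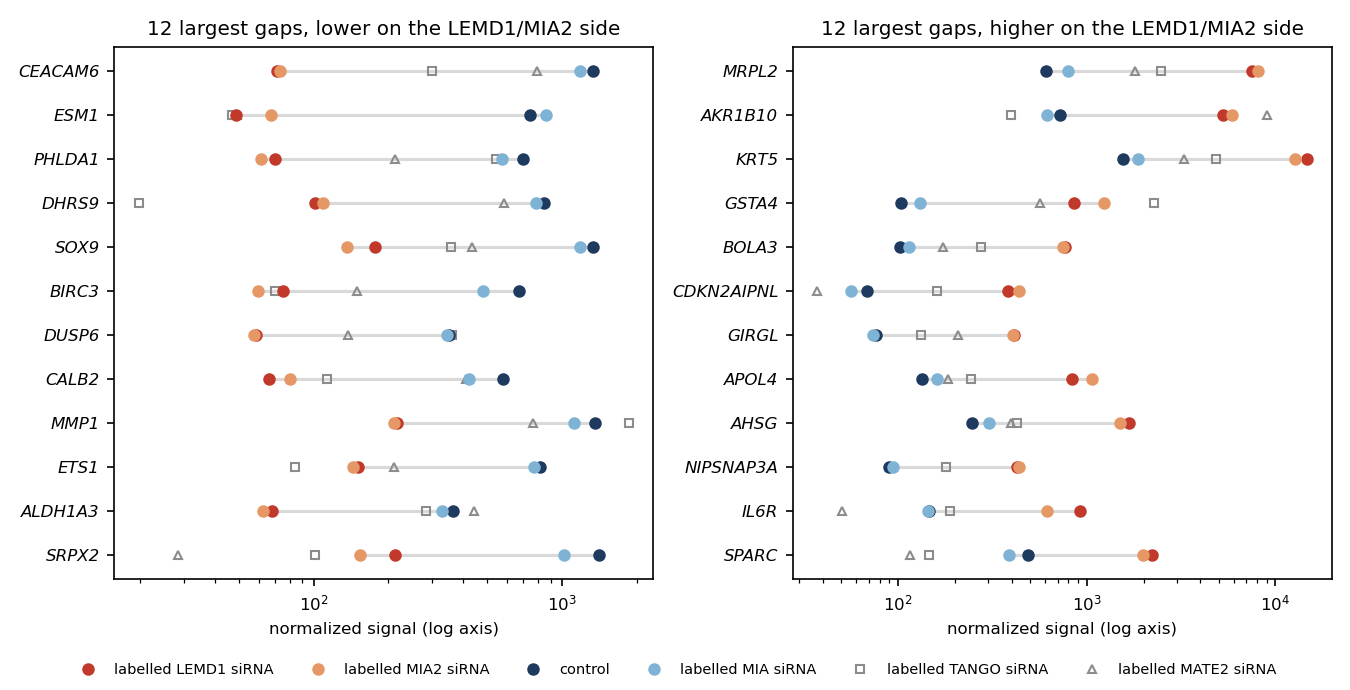
Normalized signal (log axis) of the 12 lower and 12 higher genes with the largest gaps among brighter genes, 1 point per array, with the arrays labelled LEMD1 siRNA, MIA2 siRNA, control and MIA siRNA filled and those for TANGO siRNA (squares) and MATE2 siRNA (triangles) open. In every gene shown the filled points form a pair on each side with a gap of at least 4-fold between them, from 4.04-fold in SPARC to 16.2-fold in CEACAM6, and the open points, which the rule did not use, fall on either side or between.

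Genes were next read by lists of known function, each set beside 1.61% lower and 0.998% higher over all genes. The lists and their members were chosen with earlier results of these data known. A list share above that of all genes is therefore a description and not independent of the values. Of 751 list genes measured, 51 were called lower and 40 higher, and 144 lower and 81 higher genes were in no list. The median log2 difference of the side means was -0.01 over all genes.

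The called genes of DNA replication were all lower on the LEMD1/MIA2 side and those of mitosis all higher. Of 35 genes measured for DNA replication and entry into S phase, 8 were called lower and 0 higher, and 29 lay below the control/MIA side by any amount, beside 27.6% of all genes. Of 47 genes measured for mitosis, 8 were called higher and 0 lower, and 34 lay above by any amount, beside 25.1% of all genes. The median difference was -0.86 for replication genes and 0.52 for mitotic genes. The replication median was -0.73 for the LEMD1 siRNA array over control and -0.90 for the array labelled MIA2 siRNA over the array labelled MIA siRNA. The mitotic medians were 0.69 and 0.37. When the background was not subtracted, 4 replication genes and 4 mitotic genes were called. Leaving out an array eases the rule, so more genes pass. Without the LEMD1 siRNA array 15 of 36 replication genes passed, beside 348 of 12238 genes in all. Without any 1 of the other arrays, 9 to 11 replication genes passed. Without the array labelled MIA2 siRNA 14 mitotic genes passed, beside 179 of 12552 genes in all. In bulk RNA, a different share of cells in a phase and a different level per cell cannot be told apart.

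MCM6, a subunit of the helicase that opens DNA at origins, read 162 and 144 on the LEMD1/MIA2 side and 545 and 435 on the control/MIA side. MCM7 of the same helicase read 504 and 399 on the LEMD1/MIA2 side and 1393 and 1133 on the control/MIA side, and MCM10, which helps to activate it, read 96.8 and 64.8 on the LEMD1/MIA2 side and 288 and 253 on the control/MIA side. CDC6, which loads the helicase at origins, read 249 and 281 on the LEMD1/MIA2 side and 632 and 602 on the control/MIA side. The gaps of these genes were -1.42, -1.17, -1.38 and -1.10. RFC4, a subunit of the loader of the sliding clamp, and POLE2, a subunit of the leading strand polymerase, had gaps of -1.32 and -1.25. The helicase cofactor GINS3 and the flap nuclease FEN1 made up the 8, with gaps of -1.08 and -1.01. POLD1 and CDC25A were good on control and the array labelled MIA siRNA alone and are not among the 8. They passed only through that side, and their bounds were small, at least 1.20-fold and at least 1.23-fold lower. E2F1, the transcription factor whose targets include many of these genes, had overlapping sides, at 121 and 102 on the LEMD1/MIA2 side and 146 and 121 on the control/MIA side.

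CCNB1, the cyclin that drives entry into mitosis, read 2040.5 and 1556 on the LEMD1/MIA2 side and 460.0 and 461 on the control/MIA side, 3.37-fold apart. CCNB2 read 1265 and 1181 on the LEMD1/MIA2 side and 496 and 501 on the control/MIA side. CDC20, which activates the anaphase-promoting complex, read 514 and 424 on the LEMD1/MIA2 side and 169 and 159.9 on the control/MIA side. In all 3 genes the control and MIA arrays lay close together, and CCNB2 and CDC20 had gaps of 1.24 and 1.33. BIRC5, or survivin, a part of the chromosomal passenger complex, had a gap of 1.45, and CENPA, the centromeric histone H3 variant, one of 1.28. The kinases AURKA and NEK2 and the kinesin KIF20A completed the group with gaps of 1.05, 1.05 and 1.04. PSRC1, a spindle protein, was good on the LEMD1/MIA2 arrays alone and at least 6.22-fold higher there. It passed only through that side, where it was high, and does not add to the called mitotic genes.

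Promoters of both groups are shown because the calls of the groups lay in opposite directions and the groups are known to be read by different promoter elements. Each window is RefSeq sequence of GRCh38.p14, from 250 bases before to 50 bases after the start of the gene, and spans the end of the promoter and the first bases of the transcript. For the replication genes the letters marked are TTTNGCGC, the E2F site, and for the mitotic genes TTTGAA, the cell cycle homology region, in each case with CCAAT, on both strands. Capitals mark these letters or their reverse complement. Other elements, among them the TATA box and the AP-1 site, were searched as well, also for other gene lists, and are not reported here. MCM6 lies at chr2:135876394-135876693 on the minus strand, CDC6 at chr17:40287629-40287928, CDC20 at chr1:43358731-43359030 and CCNB2 at chr15:59104896-59105195, the last 3 on the plus strand.
MCM6: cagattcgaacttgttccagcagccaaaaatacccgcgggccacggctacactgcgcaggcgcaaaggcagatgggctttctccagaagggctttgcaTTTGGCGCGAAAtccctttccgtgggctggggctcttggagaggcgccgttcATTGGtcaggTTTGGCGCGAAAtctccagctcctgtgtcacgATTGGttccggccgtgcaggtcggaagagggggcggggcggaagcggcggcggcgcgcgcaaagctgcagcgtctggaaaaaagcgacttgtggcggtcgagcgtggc
CDC6: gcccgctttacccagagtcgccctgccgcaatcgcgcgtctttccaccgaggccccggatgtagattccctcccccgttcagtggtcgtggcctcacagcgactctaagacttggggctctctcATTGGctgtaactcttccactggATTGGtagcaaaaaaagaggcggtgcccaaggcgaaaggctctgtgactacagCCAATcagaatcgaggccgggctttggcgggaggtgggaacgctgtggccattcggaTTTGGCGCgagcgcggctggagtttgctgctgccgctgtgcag
CDC20: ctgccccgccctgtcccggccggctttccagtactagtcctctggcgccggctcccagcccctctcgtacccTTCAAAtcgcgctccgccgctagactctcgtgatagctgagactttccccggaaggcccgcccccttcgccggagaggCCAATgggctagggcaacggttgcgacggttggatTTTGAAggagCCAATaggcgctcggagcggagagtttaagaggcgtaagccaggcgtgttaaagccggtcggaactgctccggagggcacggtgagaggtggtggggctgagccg
CCNB2: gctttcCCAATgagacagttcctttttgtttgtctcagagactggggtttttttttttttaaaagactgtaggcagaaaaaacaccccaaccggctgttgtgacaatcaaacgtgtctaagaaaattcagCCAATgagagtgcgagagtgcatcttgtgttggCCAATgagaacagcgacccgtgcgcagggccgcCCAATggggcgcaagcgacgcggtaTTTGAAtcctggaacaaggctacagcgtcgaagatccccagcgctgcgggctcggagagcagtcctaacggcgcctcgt

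The MCM6 window held 4 E2F matches, as overlapping matches on opposite strands in 2 runs, and the CDC6 window 1. The CDC20 window held 2 matches of TTTGAA and the CCNB2 window 1, with 2 and 4 CCAAT boxes. Among genes with a single start in the promoter table, TTTNGCGC stood in 11 of 25 windows of replication genes that were measured, or 44.0%, against 2.79% of 7050 windows of all genes measured. TTTGAA stood in 26 of 33 windows of mitotic genes that were measured, or 78.8%, against 10.3%. CCAAT stood in 56.0% and 78.8% of them, against 37.2%. Over all 35116 promoters the shares were 1.79% for the E2F site, 15.2% for TTTGAA and 34.6% for CCAAT. Among the called genes alone, 3 of 7 replication genes held the E2F site and 3 of 6 mitotic genes TTTGAA, while all 6 of the latter held CCAAT. A match is a run of letters, not evidence that a factor was bound.

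Core histone genes were called higher alone, as the mitotic genes were. Of 14 genes measured, 4 were called higher and 0 lower, and 12 lay above by any amount, beside 25.1% of all genes. The median difference was 0.89. H2BC4 read 442 and 356 on the LEMD1/MIA2 side and 104 and 95.1 on the control/MIA side, and H4C8 read 473 and 352 on the LEMD1/MIA2 side and 112 and 109 on the control/MIA side. H2BC5 and H2BC12 had gaps of 1.44 and 1.07, and H2BC8 and H2BC21 did not reach the threshold at 0.99 and 0.96. With each array scaled to its median, H2BC12 missed the threshold, and 5 members in all were called higher. The variants H2AZ1 and H2AX, made outside S phase too, had gaps of 0.04 and 0.06. The clustered histone genes are near-identical copies, so a probe can read more than the gene it is named for, and these values are uncertain as to the gene.

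**Figure D3:**
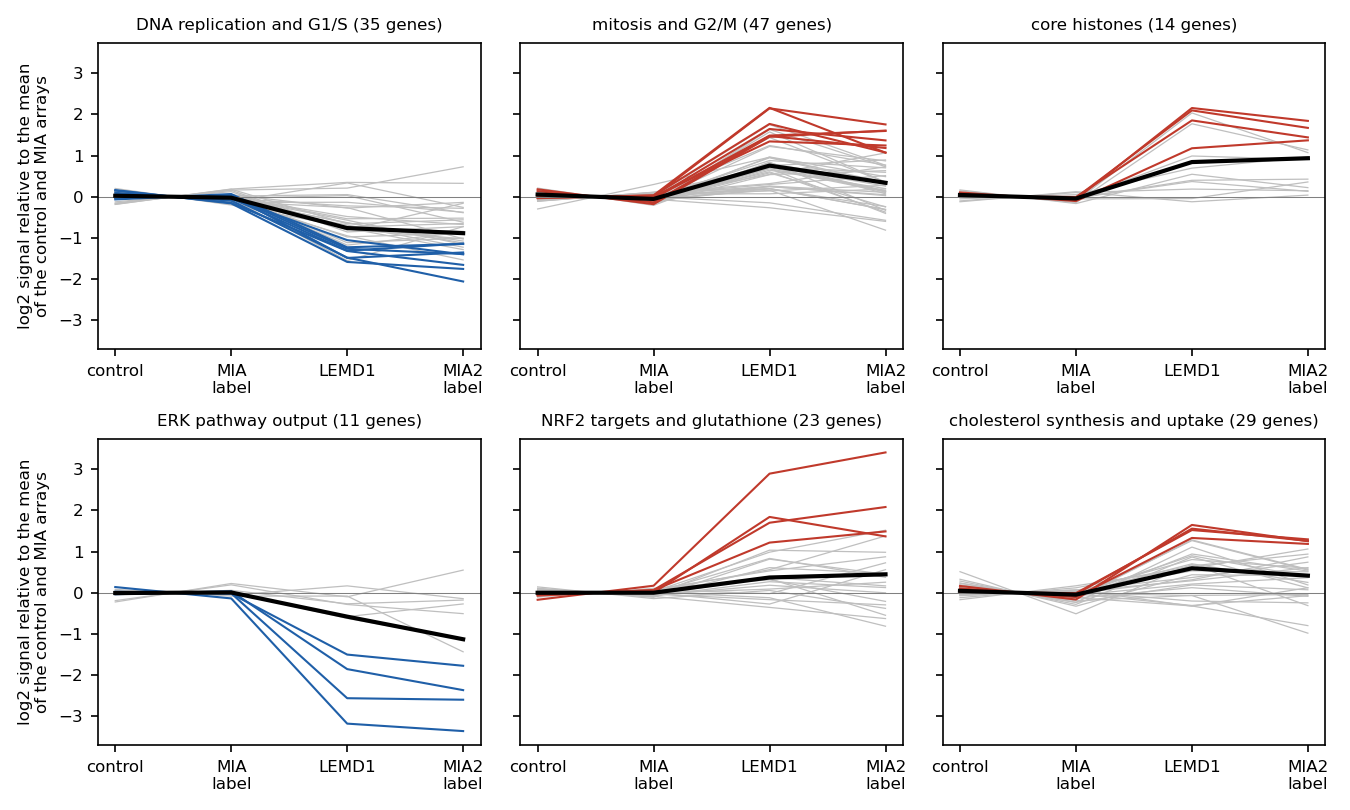
Log2 signal of the measured members of 6 gene lists on the arrays labelled control, MIA siRNA, LEMD1 siRNA and MIA2 siRNA, relative to the mean of the first pair, 1 line per gene, with called genes in blue (lower) or red (higher) and the median in black. The median of the replication genes lies below 0 on both arrays at the right and those of mitotic and histone genes above it, with median side differences of -0.86, 0.52 and 0.89.

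Genes listed as reporting on ERK signalling, which carries growth factor signals to the nucleus, were called lower alone. Of 11 genes measured, 4 were called lower and 0 higher, and the median difference was -0.76. By any amount 9 lay below, beside 27.6% of all genes. With genes good on both arrays of either side admitted, 7 of 16 were called lower, beside 261 of 13423 genes in all. A lower gene so admitted passed the filter only through the side where it was high, so it does not add to the 4. Beside PHLDA1, DUSP6, the phosphatase that switches ERK off, read 58.8 and 57.3 on the LEMD1/MIA2 side and 350.4 and 344 on the control/MIA side. FOSL1, an AP-1 subunit that ERK stabilizes, read 195 and 137 on the LEMD1/MIA2 side and 689 and 723 on the control/MIA side, and its second probe, with a gap of -0.78, did not reach 2-fold. The ephrin receptor EPHA2 read 147 and 121 on the LEMD1/MIA2 side and 422 and 408 on the control/MIA side. FOS, another AP-1 subunit, was placed with the immediate early genes and not on this list, and was called higher with a gap of 1.89. The single direction thus holds for the list as drawn. Flags left further members on 1 side alone, with ETV1, an ETS factor, at least 3.41-fold lower and SPRY2, a feedback inhibitor, at least 2.36-fold lower on the LEMD1/MIA2 side. EPHA4 was good on the LEMD1/MIA2 side alone and at least 1.08-fold higher. TGFA, a ligand of the EGF receptor, read 122 and 117 on the LEMD1/MIA2 side and 419 and 374 on the control/MIA side and was the 1 called gene of 11 EGF receptor ligands and receptors.

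Immediate early genes, which respond first to growth factors and stress, were called in both directions. Of 24 genes measured, 5 were called lower and 1 higher. CCN1, a matricellular protein, read 349 and 329 on the LEMD1/MIA2 side and 1305 and 1202 on the control/MIA side. FOS went the other way from FOSL1, at 2285 and 1437 on the LEMD1/MIA2 side and 321 and 389 on the control/MIA side. ZFP36L1, which destabilizes messenger RNA, IER5 and GADD45B had gaps of -1.33, -1.15 and -1.19. Of 21 genes measured as targets of the YAP coactivator, 15 lay below by any amount, beside 27.6% of all genes. From these 21, 4 were called lower and 0 higher. They were CCN1 and GADD45B again, AMOTL2 with a gap of -1.33 and F3, or tissue factor, at 1718 and 1338 on the LEMD1/MIA2 side and 4621 and 5043 on the control/MIA side. The lists share members, so their counts are not independent of each other.

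The urokinase system, which turns plasminogen into plasmin at the cell surface, had called genes in 1 direction, lower on the LEMD1/MIA2 side. Of 12 genes measured, 4 were called lower and 0 higher, and 10 lay below by any amount, beside 27.6% of all genes. PLAUR, the urokinase receptor, read 142 and 152 on the LEMD1/MIA2 side and 647 and 645 on the control/MIA side. Its ligand SRPX2 read 213 and 153 on the LEMD1/MIA2 side and 1411 and 1016 on the control/MIA side. PLAT, the tissue-type activator, read 376 and 249 on the LEMD1/MIA2 side and 1770.4 and 1221 on the control/MIA side, and the protease inhibitor SERPINE2 read 91.6 and 156 on the LEMD1/MIA2 side and 659 and 711 on the control/MIA side. The LEMD1/MIA2 arrays were thus lower in an activator, an inhibitor, a receptor and a ligand of that receptor. The study took up SRPX2 from the LEMD1 siRNA and control arrays, so its place on this list is not independent of these values.

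Of 18 genes measured for matrix proteases and their inhibitors, 4 were called lower and 1 higher. The collagenase MMP1 read 217 and 210.2 on the LEMD1/MIA2 side and 1362 and 1119.7 on the control/MIA side, and the small protease MMP7 read 1189 and 2106 on the LEMD1/MIA2 side and 7327 and 6171 on the control/MIA side. TIMP2, an inhibitor of such proteases, and ADAM8 had gaps of -1.82 and -1.47. CTSV, a lysosomal cysteine protease, was higher, at 635 and 694 on the LEMD1/MIA2 side and 232 and 229 on the control/MIA side. Of 19 genes for the growth of blood and lymph vessels, ESM1 and EPHA2 were the 2 called, both lower. Of 20 clade B serpins and kallikreins, KLK10 and SERPINB1 were the 2 called, both lower, with gaps of -1.94 and -1.25.

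Inflammatory and interferon genes gave few calls. Of 16 genes measured as NF-kB targets, BIRC3 and IER5 were called lower and 0 were called higher. By any amount 10 of the 16 lay below, beside 27.6% of all genes. HERC5 was the 1 called gene of 40 interferon-stimulated genes. It read 97.6 and 83.0 on the LEMD1/MIA2 side and 328 and 256 on the control/MIA side. By any amount 19 of the 40 lay below and 5 above, beside 27.6% and 25.1% of all genes. HLA-E, a class I molecule read by natural killer cells, was the 1 called gene of 13 for antigen processing and read 169 and 176 on the LEMD1/MIA2 side and 530.5 and 415 on the control/MIA side. Of the 13, 8 lay below and 0 above by any amount, beside 27.6% and 25.1% of all genes. Among 16 cytokines, chemokines and their receptors, IL6R alone was called. Among 22 apoptosis regulators, BIRC3 was called lower and BIRC5 higher.

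Keratinocyte genes went both ways. Of 25 genes measured for basal keratinocytes and their anchoring to the basement membrane, 3 were called lower and 3 higher. KRT14, the partner of KRT5 in basal keratin filaments, was higher with it, at 14440.4 and 16779.6 on the LEMD1/MIA2 side and 5354 and 6483 on the control/MIA side, but fell short of 2-fold where each array was scaled to its median. COL7A1, the collagen of anchoring fibrils, was higher, at 1414 and 657 on the LEMD1/MIA2 side and 317 and 258 on the control/MIA side. Among the lower genes, the integrin chain ITGA2, part of a collagen receptor, had gaps of -1.41 and -2.19 on its 2 good probes. LAMB3, a laminin chain of the basement membrane, had a gap of -1.04 on the probe used and overlapping sides on its second probe. The basal keratins KRT5 and KRT14 therefore lay in the opposite direction to ITGA2.

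Of 26 genes measured for the cornified layers, 2 were called lower and 2 higher. TGM1, the transglutaminase that crosslinks the cornified envelope, read 506 and 537 on the LEMD1/MIA2 side and 143 and 147 on the control/MIA side, and SPRR1B, one of its substrates, read 223 and 268 on the LEMD1/MIA2 side and 50.5 and 78.5 on the control/MIA side. KLK10 read 703 and 833 on the LEMD1/MIA2 side and 3238 and 3204 on the control/MIA side, and the matrix protein ECM1 had a gap of -1.94. Among 25 junction and adhesion genes, CEACAM6 was lower and the desmosomal cadherin DSC3 was higher, with a gap of 1.08. Among 21 genes of the mesenchymal transition, SOX9 was lower, and SPARC and the galectin LGALS1, with a gap of 1.04, were higher. Among 16 S100 proteins, annexins and related calcium binders, CALB2, S100P and ANXA3 were lower, the last 2 with gaps of -1.42 and -1.23. S100A2 was higher with a gap of 1.15. Its second probe had overlapping sides, and the first missed the threshold under scaling to the median.

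The labelled cell type was checked against its markers. All 8 squamous epithelial markers with a named probe were good on the 4 arrays, with KRT5 and KRT14 called higher and 1 marker called lower. The summed signal of the 8 was 42361 and 40229 on the LEMD1/MIA2 side and 31610 and 29193 on the control/MIA side. KRT5 and KRT14 made up most of it on the LEMD1/MIA2 side, so it does not give the direction of the other markers. Since SPARC and LGALS1 are also abundant in fibroblasts, fibroblast markers were set beside them. Of 8, 3 were good on the 4 arrays with 0 called, COL3A1, DCN and POSTN were good on none, and the summed signal was 592 and 616 against 410.3 and 615. Of the endothelial, leukocyte and melanocyte markers, 2, 3 and 2 were good on the 4 arrays and 0 were called. CDH5, VWF, PTPRC and MLANA were good on none. Their summed signals were 494 to 640.4 for endothelial, 355 to 494 for leukocyte and 309.7 to 433 for melanocyte markers.

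Called genes of redox defence and of sterol synthesis were all higher. Of 23 genes measured as NRF2 targets or glutathione enzymes, 4 were called higher and 0 lower. By any amount 14 of the 23 lay above, beside 25.1% of all genes. GPX2, a glutathione peroxidase of epithelia, read 2486 and 3238 on the LEMD1/MIA2 side and 730.2 and 801 on the control/MIA side. GCLC, which catalyses the limiting step of glutathione synthesis, read 2392 and 1724 on the LEMD1/MIA2 side and 667 and 668 on the control/MIA side. ME1, a source of NADPH, had a gap of 1.16 and was also the 1 called gene of 18 for fatty acid synthesis. Of 16 genes measured for aldehyde and retinoid metabolism, AKR1B10 and AKR1C2, a steroid reductase at 1657 and 1286 on the LEMD1/MIA2 side and 374 and 352 on the control/MIA side, were higher, and DHRS9 and ALDH1A3 were lower. AKR1C2 has close paralogs that its probe may also read.

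Of 29 genes measured for cholesterol synthesis and uptake, 4 were called higher and 0 lower. By any amount 18 lay above and 4 below, beside 25.1% and 27.6% of all genes. IDI1, an isomerase of the mevalonate pathway, read 5267 and 4763 on the LEMD1/MIA2 side and 2253 and 1947 on the control/MIA side. INSIG1, which holds the sterol sensor in the endoplasmic reticulum, read 768 and 584 on the LEMD1/MIA2 side and 275 and 219 on the control/MIA side. MVK, or mevalonate kinase, and MYLIP, a ligase that degrades the LDL receptor, had gaps of 1.29 and 1.22. Without subtraction of the background, 2 of the 4 were called. The median difference of the list was 0.52, beside 0.17 for fatty acid synthesis.

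Stress lists gave few calls, and outside the amino acid response these were of 1 or 2 genes in lists with small medians. The median differences were -0.46 for the amino acid response, -0.01 for endoplasmic reticulum chaperones, 0.08 for heat shock and 0.04 for p53 targets. Of 31 genes measured of the amino acid response driven by ATF4, 3 were called lower and 0 higher. By any amount 20 of the 31 lay below, beside 27.6% of all genes. ASNS, or asparagine synthetase, read 272 and 296 on the LEMD1/MIA2 side and 807 and 866 on the control/MIA side. CTH, which makes cysteine, and CHAC1, which degrades glutathione, had gaps of -1.50 and -1.12. XBP1 was the 1 called gene of 26 for endoplasmic reticulum chaperones, lower with a gap of -1.10 on one probe with overlap on the other. HSPB1 was the 1 called gene of 15 for heat shock and was higher, at 3882 and 5975 on the LEMD1/MIA2 side and 1334 and 1427 on the control/MIA side. Of 25 genes measured as p53 targets, GADD45A, which acts in growth arrest, was lower at 296 and 372 on the LEMD1/MIA2 side and 1546 and 1580.0 on the control/MIA side beside GADD45B, and 0 were higher.

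Of 32 genes measured for glycolysis and hypoxia, the lactate exporter SLC16A3 was lower with a gap of -1.36 and the prolyl hydroxylase EGLN3 higher with one of 1.14. By any amount 18 of the 32 lay above and 5 below, beside 25.1% and 27.6% of all genes, and the median difference was 0.29. Of 21 genes measured for TGF-beta and BMP feedback, PMEPA1, which restrains TGF-beta signalling, was lower with a gap of -1.40 and ID3, an inhibitor of bHLH factors, higher with one of 1.07. Of 68 genes measured for the mitochondrial ribosome, 3 were called higher and 0 lower, namely MRPL2 and, with smaller gaps, MRPL40 and MRPL54, at 1.64 and 1.23. In that list 31 genes lay above and 11 below by any amount, beside 25.1% and 27.6% of all genes, and the median difference was 0.18.

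No measured gene in the families of the siRNA targets was called. Of 17 LEM domain and nuclear lamina genes measured, 0 were called, beside 1.61% lower and 0.998% higher over all genes. By any amount 7 lay below and 2 above, beside 27.6% and 25.1% of all genes. LEMD1 itself, near background on the LEMD1/MIA2 side, was not among the 17. LEMD2, a relative of LEMD1, had a gap of -0.54. The emerin gene EMD and LEMD3 had overlapping sides. Of 9 genes measured for the MIA family and drug export, 0 were called, and the transporter ABCG2 had a gap of 0.13. At the shares over all genes, 0 calls in lists this short do not set them apart.

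**Figure D4:**
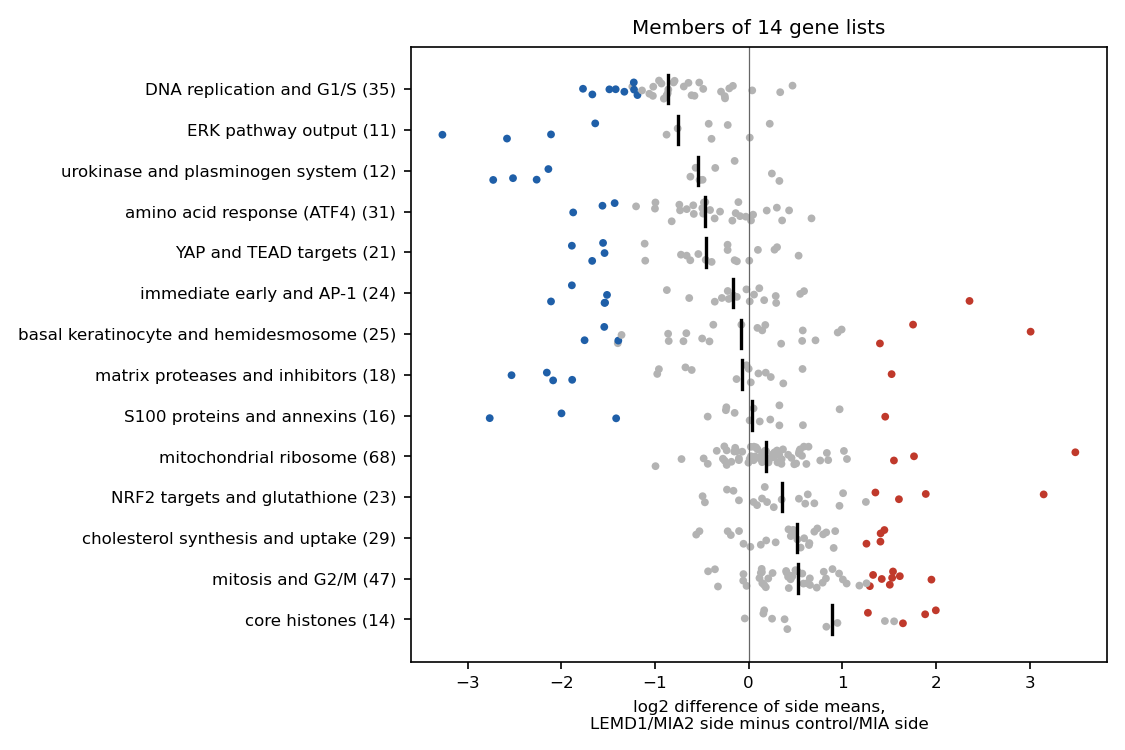
Log2 difference of the side means (LEMD1/MIA2 minus control/MIA), 1 point per measured gene, for the 14 lists with at least 3 members called in a direction, with called genes in blue (lower) or red (higher), black ticks at the medians and the number of measured genes after each name. DNA replication stands at one end with a median of -0.86 and core histones at the other with 0.89, while keratinocyte and protease genes spread to both sides of 0.

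Further genes were good on both arrays of a side and near background on both of the other, and gave only a bound of the fold. On control and the array labelled MIA siRNA alone there were 182 such genes, 28 of them with a bound of at least 2-fold. HSD17B2, which inactivates estradiol and testosterone, read 254 and 247 there and was at least 6.40-fold lower on the LEMD1/MIA2 side. GNG4, a G protein subunit, and CLMP, an adhesion molecule of epithelial junctions, were at least 5.55-fold and at least 4.45-fold lower, and a second PHLDA1 probe was at least 4.33-fold lower. On the LEMD1/MIA2 arrays alone there were 259 genes, 25 of them with a bound of at least 2-fold. After PSRC1, the largest were PTGS1, a cyclooxygenase, at least 5.07-fold higher, and the neuropeptide NMU, at least 4.71-fold. CAPNS2, RDH12 and RAB7B followed with at least 4.53-fold, at least 3.84-fold and at least 3.53-fold. GNG4, PHLDA1 and PTGS1 each had another probe that was good on the 4 arrays.

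Other probes of the called genes bear on how firmly a gene is named. Of the 195 lower genes, 27 had another probe good on the 4 arrays. For 8 of these every other probe was called too, for 16, these 8 included, every other probe lay the same way, and for 11 at least 1 overlapped or lay opposite. Of the 121 higher genes, 14 had another good probe, with 5, 9 and 5 in these classes. In neither direction was another probe called the opposite way.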

How the data were processed

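Total RNA was isolated from HSC3 cells, and Cy5-labelled samples were read on 1-colour CodeLink Human Whole Genome Bioarrays, 1 array per condition. Spot intensities were taken from the scanner output as deposited, and CodeLink Expression Analysis 5.0.0.31312 had produced that output according to the headers. This raw intensity was the spot mean less the median of the local background, which held within 0.0001 on the spots used. A quantile-normalized table deposited by the authors served as an alternative. Groups came from the sample labels.

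Gene probes masked on any array (320 of 53423) were left out, intensities were quantile normalized over the 6 arrays, a floor of 1 was set and log2 was taken. Probes flagged good on the 4 arrays were used (24846, of which 14118 had 1 gene name). The probe with the highest mean signal over the 6 arrays stood for a gene. Names came from the platform annotation, updated through RefSeq. Where a side was near background on both arrays, its level was taken as the higher of the signal and the lowest good signal on each array, which ranged from 27.5 to 38.6. Depth does not apply to arrays, and their number limits the precision.

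The comparison, the 39 gene lists and their members were chosen with earlier results of these data known. The genes named were the 12 with the largest gap in each direction among those with a mean signal on the higher side above the median, called list members (at most 6 a direction), the siRNA targets and SRPX2, the 6 largest bounds in each direction, and 2 genes on either side of the threshold. Other list members were named after their values were seen, and 1 called list member is not reported here. Python 3.11.15, pandas 2.3.3, numpy 2.4.6, R 4.3.3 and limma 3.58.1 were used. The alternatives were another scaling, normalization of the 4 arrays alone, the deposited table, no background correction, normexp with an offset of 50, 50 added to the signal, other filters on flags and brightness, the mean over probes, thresholds of 1.5-fold and 3-fold, side means, and leaving out each array.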

Additional observations from a re-analysis of the deposited data

How the results depend on the processing

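No alternative reversed any of the 98 named genes that were called, and 70 of them kept their call under every alternative except the 3-fold rule where they were measured. The 1.5-fold threshold and the side means apply a looser rule to the same values, so they could neither reverse nor remove a call. The 3-fold threshold used the same gaps and could remove a call but not reverse it. With 50 added, the order of the arrays for a probe stays, so its call could weaken but not reverse. Leaving out an array, or another filter on flags or brightness, kept the normalized values. A call could then change only where another probe was taken or the gene was no longer measured. The number of lower genes (195) became 128 with normexp and an offset of 50, 115 without background correction, 375 with no filter on flags, 592 at 1.5-fold, 44 at 3-fold and 354 by side means. The number of higher genes (121) became 73, 70, 278, 386, 28 and 236 under the same settings and 74 with 50 added to the signal. Called list members became 91 lower and 73 higher at 1.5-fold, 21 and 14 at 3-fold, and 26 higher without background correction, from 51 and 40. Leaving out each array in turn eases the rule, since 1 array then stands for its side, and gave 211 (without control) to 348 (without the LEMD1 siRNA array) lower and 163 (without control) to 250 (without the LEMD1 siRNA array) higher genes. Genes good on the control/MIA arrays alone, 182, became 288 to 705, and those good on the LEMD1/MIA2 arrays alone, 259, became 396 to 834, with the extremes where the array labelled MIA2 siRNA or the LEMD1 siRNA array was left out. Of 255 list counts, 216 stayed within 1.5 times. Median scaling called 196 lower and 111 higher genes, of which 183 and 105 were shared, and the deposited table called 195 and 126. With 50 added or with normexp, 20 named genes missed the threshold, namely CCNJL, CDC6, CENPA, CHAC1, COL7A1, DSC3, EGLN3, GADD45B, GATAD1, ID3, INSIG1, LAMB3, LGALS1, ME1, MRPL54, MVK, NEK2, NFKBIL1, S100P and SRL. Without background correction these and HERC5, HLA-E, MCM10 and SPRR1B missed it, 24 in all. The causes were not tested. Signal over background limits the dim genes, and a gap of theirs can be smaller where a constant is added. No paired analysis was possible because each condition has 1 array.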

Other observations

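Some genes had levels on the TANGO siRNA and MATE2 siRNA arrays, which the rule did not use, outside the range of the 4 arrays compared. SPRR1B, a substrate of the cornified envelope, read 6572 and 5652 there, against 50.5 to 268 on the others. The small heat shock protein HSPB1 read 18468 and 19037, against 1334 to 5975. GCLC read 87.4 and 179.6, against 667 to 2392. SRPX2 read 102 on the TANGO siRNA array and was near background, at 28.3, on the MATE2 siRNA array, below the 153 to 1411 of the others. The LEMD1 probe, near background on the LEMD1/MIA2 side and not among the called genes, read 3192 and 1011 on them, above the 277.9 of control. These genes were picked after their values were seen.

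Many probes have no single gene name. Of 10728 such probes that were good on the 4 arrays, 35 were lower and 44 higher by the same rule, beside 256 and 177 of all 24846 probes.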
